A study of Mus musculus with 12 samples.

Results

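A set of 10 genes that mark the formative epiblast were followed across wild-type, Id1-deficient and Id1-deficient, Zrf1-depleted mouse embryonic stem cells: Fgf5, Fst, Otx2, Pou3f1, Zic2, Sall2, Sox4, Lef1, Cldn6 and Car14. They were chosen by name, with earlier results of these data known. Every probe whose gene name in the scanner files is one of these 10 was taken. This gave 13 of the 55681 non-control probes, with 3 for Sox4, 2 for Lef1 and 1 for each of the other genes. All 13 passed the filter on dim probes, so that the 10 genes stand among 22590 genes tested, a gene here being 1 gene name of the array.

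Total RNA was measured on 12 single-colour (Cy3) arrays, 4 in each of 3 groups, and the submitters' design text describes the 4 samples of a group as independent biological samples. The Id1KO_Zrf1KD cells carried the Id1 knockout and, in addition, Zrf1 shRNAs brought in with a lentiviral pLKO vector, and were kept as a stable population by puromycin selection. The Id1KO cells carried the knockout alone, and the WT cells were wild type. Both came as existing lines from another laboratory, and all 3 groups grew in medium with serum and leukaemia inhibitory factor (LIF), so none was held in a medium made for the formative state. The labels do not say how many lines or clones stand behind a group, so the spread within a group may be that of cultures of 1 line. No cells with a control hairpin were analysed here, and loss of Zrf1 therefore cannot be told apart from infection and selection.

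Mouse pluripotent cells pass from a naive state, held in culture by LIF, through a formative state, that of the epiblast shortly after implantation, to a primed state close to gastrulation. In that passage FGF signalling rises, naive factors such as Tbx3 and Tfcp2l1 are lost, and Otx2 and Pou3f1 are switched on while Pou5f1 and Sox2 remain. Id1 is a helix-loop-helix protein without a DNA-binding region that holds basic helix-loop-helix factors away from their E-box sites. Zrf1, which the array lists as Dnajc2, is a J-domain protein that works as a co-chaperone at the ribosome and is also known to bind ubiquitinated histone H2A.

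Levels are given throughout as log2 of the processed signal above the 75th percentile of the same array, so that 0 is the level of that percentile and a difference of 1 is 2-fold. They are comparable between arrays for 1 probe and not between probes. Dnajc2 averaged -0.27 ± 0.08 in Id1KO_Zrf1KD and 1.89 ± 0.11 in Id1KO (SD, n = 4 each), and was 4.47-fold lower in the knockdown (limma, Benjamini-Hochberg adjusted p = 9.7e-10). Id1 was not lower in the arrays labelled Id1KO, at 1.23 ± 0.31 against 0.86 ± 0.20 in WT (adjusted p = 0.052, and 0.0016 with the slide as a block), and since no source used here places its probe inside or outside the deleted stretch, it does not check the knockout. The Y-linked gene Ddx3y averaged 0.81 in Id1KO_Zrf1KD, 0.74 in Id1KO and -6.79 in WT, where it was well above background on 0 of 4 arrays, and Eif2s3y averaged 3.20 in Id1KO_Zrf1KD, 3.48 in Id1KO and -5.57 in WT. The WT and knockout cells thus differed in Y-linked expression, and a difference between them cannot be told apart from one between cell lines. The 75th percentile itself lay between 554.0 and 596.5 intensity units in Id1KO_Zrf1KD, between 393.3 and 491.8 in Id1KO and between 440.7 and 550.2 in WT. Each of the 3 slides held all 3 groups. All 10 markers of embryonic stem cells that were set for a check of cell identity, among them Pou5f1, Sox2 and Nanog, were well above background on every array.

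In Id1KO against WT, 9 of the 10 formative markers were higher and 1, Fst, was lower at an adjusted p under 0.05 (limma). Over all genes 42.5% were called higher and 29.6% lower, so that calls were common in this comparison. At 2-fold or more, 7 markers were higher and 0 were lower, against 12.2% and 7.46% of all genes. The median log2 difference of the 10 markers was 2.02, and that of all genes was 0.15. With quantile normalization the median of all genes was 0.02, a shift of the scale that is small beside the markers' median. The 4 Id1KO values lay apart from the 4 WT values for 10 of 10 markers, beside 65.3% of all genes with groups that lay apart and 72.0% called in either direction. Since the markers were chosen with earlier results of these data known, these counts describe the set and are no independent test of it.

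In Id1KO_Zrf1KD against Id1KO, 6 markers were lower, 2 were higher and 2 were not called, where 39.8% of all genes were lower and 32.3% higher. At 2-fold or more, 4 were lower and 1 was higher, against 13.2% and 7.16% of all genes. The median of the markers was -0.77, against -0.09 for all genes, and 7 of the 10 had no overlap between the groups, a share near that of all genes without overlap (66.5%, with 72.1% called). In Id1KO_Zrf1KD against WT, 8 markers were higher, 1 was lower and 1 was not called, where 32.4% of all genes were higher and 32.2% lower. At 2-fold or more, 7 were higher and 0 lower, against 9.03% and 8.87% of all genes, and the median was 1.27, against -0.02. The groups did not overlap for 9 of the 10 markers, beside 60.7% of all genes without overlap and 64.6% called. The 3 comparisons share their arrays, so a marker that is high in the Id1KO arrays enters both of the first ones with opposite sign. Each marker's own values are given below.

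**Figure D1:**
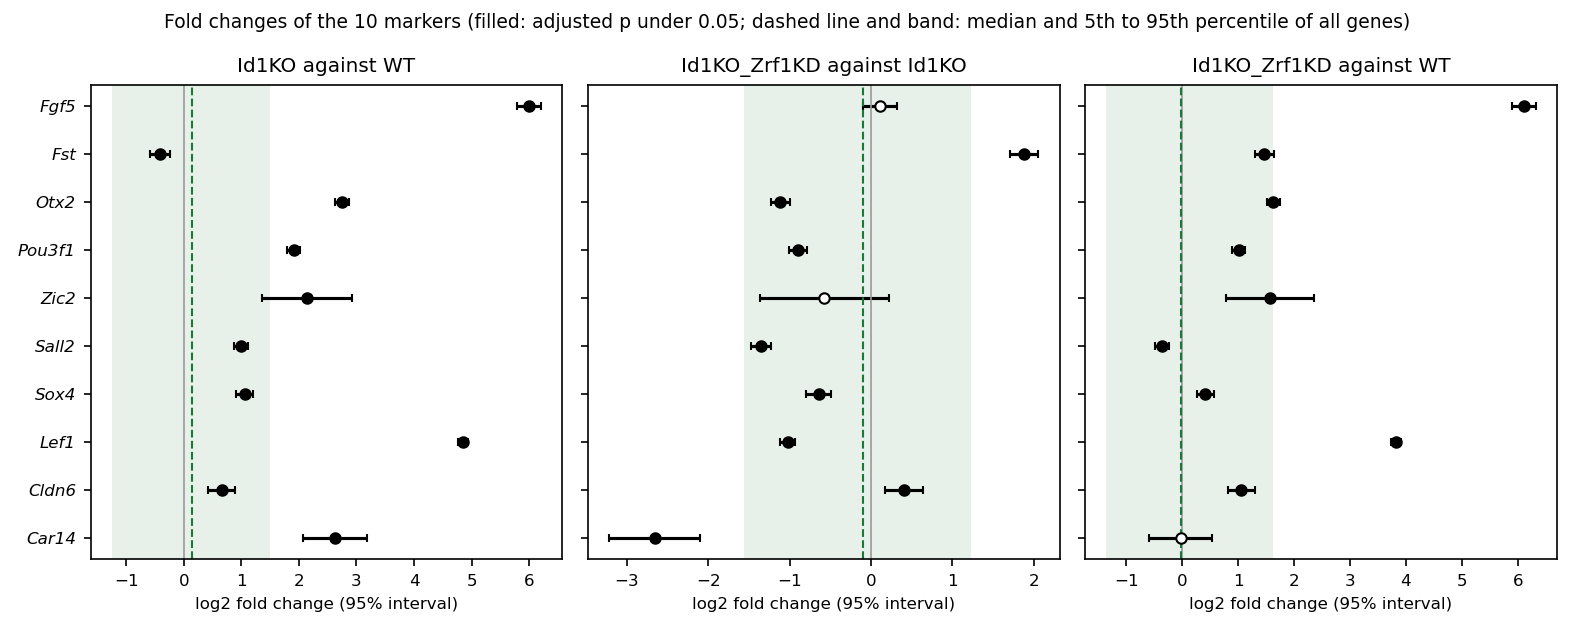
Log2 fold change of each of the 10 formative markers (points, with 95% intervals from limma) in Id1KO against WT, Id1KO_Zrf1KD against Id1KO and Id1KO_Zrf1KD against WT. Filled points have an adjusted p under 0.05, and the dashed line and band give the median and the 5th to 95th percentile of 22590 genes. Lef1 and Fgf5 lie farthest to the right in both comparisons with WT, and Car14 (-2.66) and Fst (1.88) stand at opposite ends of the comparison within the knockout cells.

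Of the 2 secreted proteins, Fgf5, a fibroblast growth factor and the most widely used marker of the early postimplantation epiblast, was well above background on every knockout array and on none of the WT arrays. It read -1.23, -1.16, -0.99 and -1.04 in Id1KO_Zrf1KD, -1.23, -1.11, -1.22 and -1.31 in Id1KO, and -7.05, -7.04, -7.44 and -7.31 in WT. Before scaling, the processed signal was 247 to 301 units in Id1KO_Zrf1KD, 162 to 210 units in Id1KO and 3.16 to 4.09 units in WT, where 0 of 4 arrays were well above background. Fgf5 was therefore at least 15.3-fold higher in Id1KO than in WT (adjusted p = 2.6e-12) and at least 16.6-fold higher in Id1KO_Zrf1KD than in WT (adjusted p = 1.8e-12). Each bound sets the WT level at the dimmest signal still called above background on the same array, and was 4.10-fold and 4.59-fold under the scaling that gave the smallest values. The adjusted p values are those of the fit to the WT values as read, below that signal, and do not test the bounds. The 2 knockout groups overlapped, with a log2 difference of 0.11 and a 95% interval of -0.10 to 0.32 (adjusted p = 0.31). That difference did pass the threshold with quantile normalization (0.23, adjusted p = 0.0079) and in the deposited values (0.17, adjusted p = 0.029), so a small rise in the knockdown was seen under some scalings, and the interval leaves no room for a fall like that of Otx2 or Lef1.

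The probe that reads Fgf5 lies on chromosome 5 at 98705980 to 98706039 (mm9, plus strand), 2431 bases into its transcript. Its last bases are shown because they hold AATAAA (capitals), the usual hexamer of a polyadenylation signal, as do those of the Fst probe (chromosome 13, 115243565 to 115243624, minus strand), and RNA was labelled from an oligo-dT primer.
Fgf5 probe, 30 bases: ttatattcctaaatgctgcAATAAAgaggc
Fst probe, 30 bases: ggcaaaacgaaacacaacaaAATAAAtaat

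Fst encodes follistatin, a secreted protein that binds activin and blocks it, and it was lower in Id1KO than in WT, where the other 9 markers were higher. It read 0.27, 0.49, 0.36 and 0.10 in Id1KO_Zrf1KD, -1.65, -1.56, -1.58 and -1.52 in Id1KO, and -1.15, -1.19, -1.06 and -1.26 in WT. All 3 groups stood apart, with Id1KO lowest and Id1KO_Zrf1KD highest. Fst was 1.33-fold lower in Id1KO than in WT (log2 -0.41 ± 0.08 SE, adjusted p = 0.00055). In Id1KO_Zrf1KD it was 3.69-fold higher than in Id1KO (adjusted p = 3.8e-09) and 2.77-fold higher than in WT (adjusted p = 2.4e-08). Knockdown and knockout arrays of the same slide differed by 1.77, 2.01 and 1.97 log2 units. Among the genes whose proteins follistatin meets or resembles, Inhba, the activin A subunit, was 8.58-fold higher in Id1KO_Zrf1KD than in Id1KO (adjusted p = 1.7e-11), and the follistatin-like gene Fstl1 was 2.77-fold higher (adjusted p = 1.0e-08). These 2 were picked from longer lists that did not all rise. Of 10 tested activin ligands, receptors and related genes, 6 were higher and 1 lower in this comparison. Of 20 tested relatives of the 10 markers, 4 were higher and 11 lower.

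**Figure D2:**
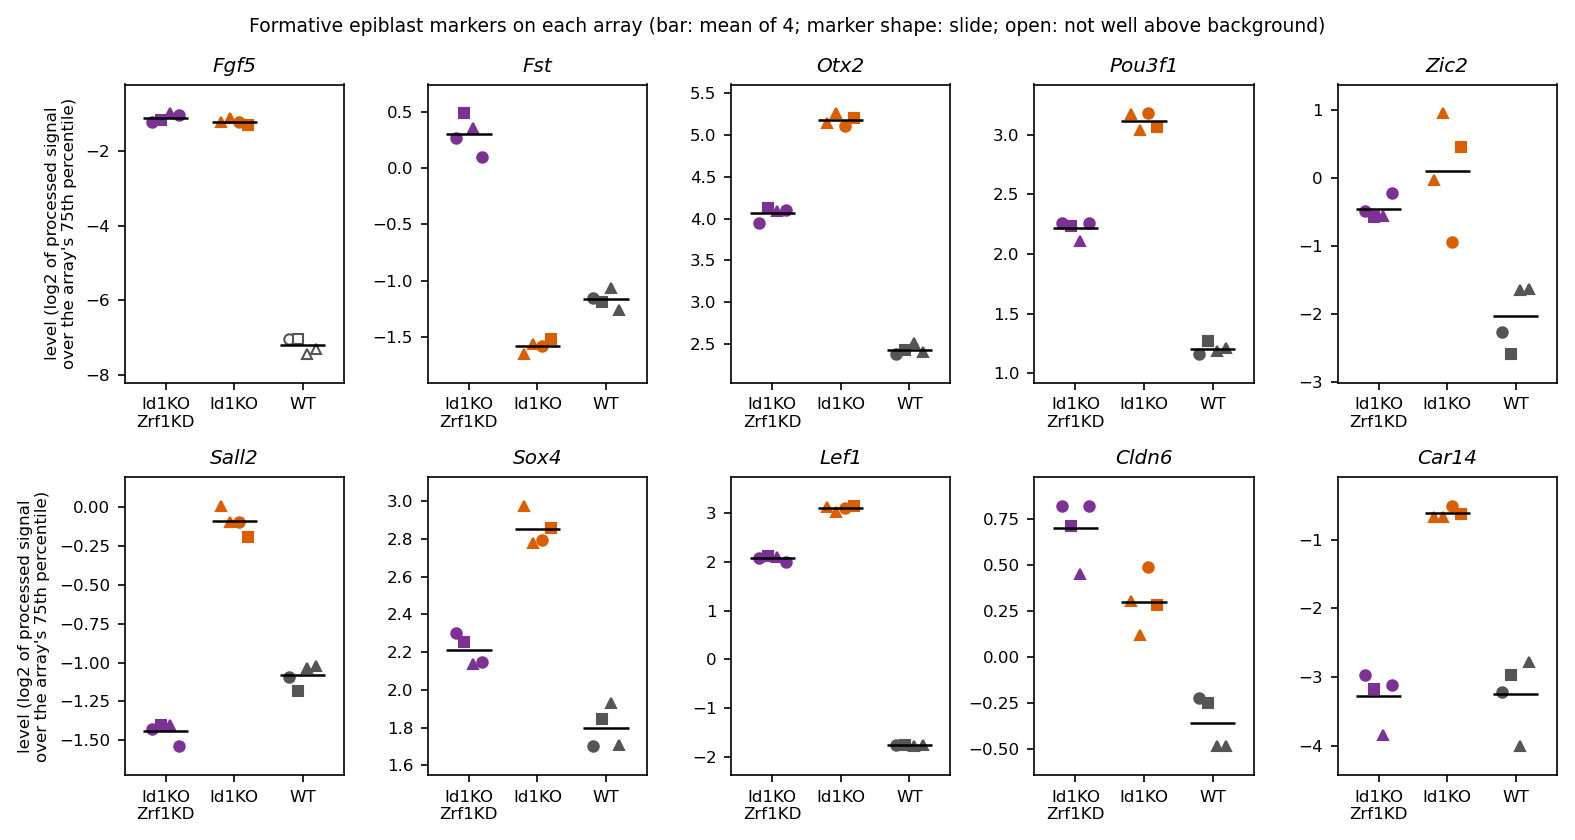
Level of each formative marker on each of the 12 arrays (log2 of the processed signal over the array's 75th percentile), for Id1KO_Zrf1KD, Id1KO and WT from left to right. Bars are means of 4 arrays, marker shapes are the 3 slides, and open points are not well above background. Fgf5 is open on all 4 WT arrays, Otx2, Pou3f1, Sox4 and Lef1 step down from Id1KO to Id1KO_Zrf1KD to WT, and the 4 Id1KO values of Zic2 spread from -0.95 to 0.94.

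Among the transcription factors, Otx2, Pou3f1, Sox4 and Lef1 shared 1 order of the groups: highest in Id1KO, lower in Id1KO_Zrf1KD and lowest in WT, with no overlap and with each of the 3 differences called. Otx2, a homeodomain factor that drives the exit from the naive state, read 3.94, 4.12, 4.09 and 4.10 in Id1KO_Zrf1KD, 5.14, 5.26, 5.11 and 5.20 in Id1KO, and 2.38, 2.43, 2.51 and 2.40 in WT. The 4 values of each group lay within 0.2 log2 units of each other. Otx2 was 6.71-fold higher in Id1KO than in WT (log2 2.75 ± 0.05 SE, adjusted p = 1.2e-11), 2.16-fold lower in Id1KO_Zrf1KD than in Id1KO (log2 -1.11, adjusted p = 1.2e-08) and 3.101-fold higher in Id1KO_Zrf1KD than in WT (adjusted p = 5.6e-10). It was read by a probe on chromosome 14, from 49277855 to 49277914 (mm9).

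Pou3f1 encodes a POU-domain factor, also called Oct6, of the epiblast and the neural lineage. It read 2.26, 2.23, 2.11 and 2.26 in Id1KO_Zrf1KD, 3.17, 3.04, 3.18 and 3.07 in Id1KO, and 1.16, 1.27, 1.19 and 1.21 in WT. It was 3.75-fold higher in Id1KO than in WT (adjusted p = 1.2e-10), 1.86-fold lower in Id1KO_Zrf1KD than in Id1KO (adjusted p = 4.1e-08) and 2.01-fold higher in Id1KO_Zrf1KD than in WT (adjusted p = 1.7e-08). On the log2 scale the knockdown thus lay 1.01 above WT and 0.90 below Id1KO, near the middle of the 1.91 between them.

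Lef1, a factor that carries the Wnt signal to DNA with beta-catenin, had the widest separation of the groups among the markers above background everywhere. Its brighter probe, on chromosome 3 at 130926200 to 130926259, read 2.08, 2.11, 2.10 and 1.998 in Id1KO_Zrf1KD, 3.11, 3.02, 3.09 and 3.15 in Id1KO, and -1.76, -1.75, -1.78 and -1.74 in WT. Lef1 was 28.8-fold higher in Id1KO than in WT (log2 4.85 ± 0.04 SE, adjusted p = 3.3e-14), and 19.4-fold higher under the scaling that gave the smallest fold. In Id1KO_Zrf1KD it was 2.03-fold lower than in Id1KO (adjusted p = 3.5e-09) and still 14.2-fold higher than in WT (adjusted p = 1.1e-13). The second probe, A_51_P420400, covers 18162 bases of the genome (chromosome 3, 130907851 to 130926012) with 60 bases and so reads across an intron. It gave 23.1-fold higher in Id1KO than in WT and 1.81-fold lower in Id1KO_Zrf1KD than in Id1KO, the same directions with somewhat smaller sizes, and down to 9.90-fold for the first under another scaling.

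Sox4, a SOX factor of progenitor cells in many tissues, changed least among these 4. Its brightest probe (chromosome 13, 29040826 to 29040885) read 2.30, 2.25, 2.14 and 2.15 in Id1KO_Zrf1KD, 2.98, 2.78, 2.79 and 2.86 in Id1KO, and 1.70, 1.85, 1.93 and 1.71 in WT. It was 2.08-fold higher in Id1KO than in WT (adjusted p = 1.0e-07), 1.56-fold lower in Id1KO_Zrf1KD than in Id1KO (adjusted p = 6.8e-06) and 1.33-fold higher in Id1KO_Zrf1KD than in WT (adjusted p = 0.00025). All 3 probes gave the same order of the groups. In Id1KO against WT the other probes read 1.99-fold and 1.64-fold, the smaller of them at A_55_P2131899 (29044482 to 29044541), which lies 1010 bases into the transcript and upstream of the brightest. For Lef1 and Sox4, the markers with more than 1 probe, the direction did not depend on the probe.

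The second Lef1 probe and the third Sox4 probe are printed whole, since the Lef1 one joins bases from both sides of an intron and the Sox4 one lies upstream of the brightest probe and gave the smallest fold.
Lef1 probe A_51_P420400 (mm9, plus strand): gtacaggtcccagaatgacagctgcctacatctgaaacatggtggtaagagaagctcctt
Sox4 probe A_55_P2131899 (mm9, minus strand): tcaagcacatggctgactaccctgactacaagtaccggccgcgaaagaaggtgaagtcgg

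**Figure D3:**
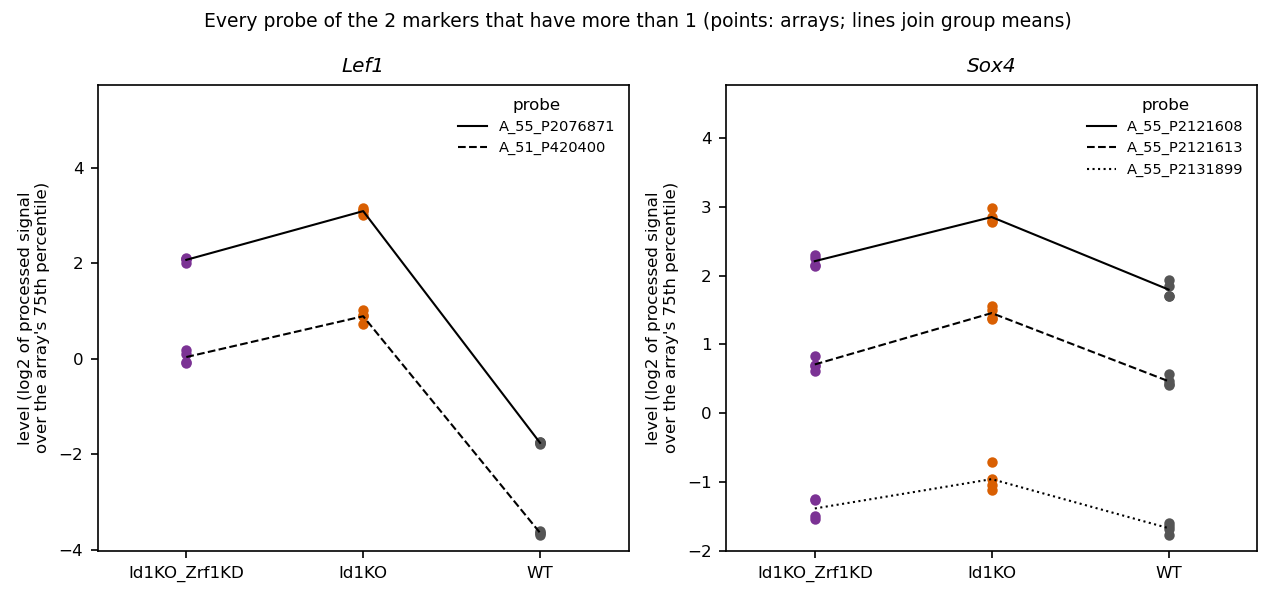
Levels of both Lef1 probes (left) and all 3 Sox4 probes (right) on the 12 arrays, as log2 of the processed signal over the array's 75th percentile. Points are arrays and lines join the means of the 4 arrays of each group, and every probe is highest in Id1KO and lowest in WT although their heights differ.

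The promoters of 7 of the 10 markers could be matched by symbol to RefSeq (GRCm38.p6), and those of Pou3f1, Zic2 and Fst are named only. For each gene the most upstream annotated start was taken, and which start these cells use was not tested. The 250 bases before the start are shown for the 3 matched factors that shared an order of the groups, with every E-box in capitals (CANNTG, which reads the same on both strands), the site from which Id proteins keep basic helix-loop-helix factors. Otx2 has CACATG at -124, Lef1 has CAAGTG at -10 and Sox4 has CAGCTG at -211, counted from the start.
Otx2, chr14:48667645-48667894, minus strand: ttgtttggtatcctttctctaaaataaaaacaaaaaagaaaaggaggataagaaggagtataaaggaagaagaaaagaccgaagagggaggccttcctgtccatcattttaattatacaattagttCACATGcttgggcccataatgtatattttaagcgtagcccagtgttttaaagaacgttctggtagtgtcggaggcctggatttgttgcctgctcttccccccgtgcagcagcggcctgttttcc
Lef1, chr3:131110047-131110296, plus strand: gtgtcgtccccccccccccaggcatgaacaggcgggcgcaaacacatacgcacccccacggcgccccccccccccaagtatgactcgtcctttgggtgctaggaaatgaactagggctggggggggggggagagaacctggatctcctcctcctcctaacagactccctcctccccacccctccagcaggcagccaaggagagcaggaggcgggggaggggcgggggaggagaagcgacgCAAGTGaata
Sox4, chr13:28953700-28953949, minus strand: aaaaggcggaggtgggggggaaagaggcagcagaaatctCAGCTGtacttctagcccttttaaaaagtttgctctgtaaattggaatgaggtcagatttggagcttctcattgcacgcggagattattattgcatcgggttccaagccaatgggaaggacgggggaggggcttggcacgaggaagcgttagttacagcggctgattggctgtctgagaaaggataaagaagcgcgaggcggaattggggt

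An E-box stood in 5 of the 7 matched promoters, against 66.1% of 27025 promoters of the same length, so these promoters hold it about as often as others do. The 2 without one were those of Fgf5 and Car14. Of 3 further motifs searched on both strands, the LEF and TCF motif CTTTGA was in 0 of 7 (14.1% of all promoters), the OTX motif TAATCC in 1 of 7, that of Car14 (6.37%), and the POU octamer ATGCAAAT in 0 of 7 (1.62%). A match is a run of letters and no measured binding, and a window without one says nothing about the factor.

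Of the 2 zinc-finger factors, Zic2 had the same order of group means as these 4, but with no call between the knockout groups, and Sall2 had another order. Zic2, which acts in the epiblast and in the forming brain, read -0.49, -0.58, -0.57 and -0.23 in Id1KO_Zrf1KD, -0.03, 0.94, -0.95 and 0.45 in Id1KO, and -2.26, -2.59, -1.66 and -1.63 in WT. Both knockout groups lay above all WT values, at 4.41-fold for Id1KO (log2 2.14 ± 0.36 SE, adjusted p = 0.00024) and 2.97-fold for Id1KO_Zrf1KD (adjusted p = 0.0024). The knockdown values lay inside the range of the Id1KO values, with a log2 difference of -0.57 and a 95% interval of -1.36 to 0.22 (adjusted p = 0.17). Within the slides that difference was 0.59, -1.03 and -1.02. Replicate 3 of Id1KO was the lowest of its group and on the first of these slides, and without it the log2 difference was -0.92 (adjusted p = 0.012).

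Sall2, a factor of the spalt family, read -1.43, -1.40, -1.40 and -1.54 in Id1KO_Zrf1KD, 0.0074, -0.10, -0.10 and -0.19 in Id1KO, and -1.09, -1.18, -1.03 and -1.02 in WT. It was 1.98-fold higher in Id1KO than in WT (adjusted p = 3.7e-08). In Id1KO_Zrf1KD it was 2.54-fold lower than in Id1KO (adjusted p = 4.3e-09) and also 1.28-fold lower than in WT (log2 -0.36 ± 0.06 SE, adjusted p = 0.00017), which makes it the 1 marker of the 10 called below WT in the knockdown. On the 3 slides this difference from WT was -0.39, -0.22 and -0.37 log2 units.

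The 2 membrane proteins of the list also parted. Car14, a carbonic anhydrase anchored in the cell membrane, read -2.97, -3.17, -3.84 and -3.11 in Id1KO_Zrf1KD, -0.67, -0.66, -0.50 and -0.63 in Id1KO, and -3.22, -2.97, -4.01 and -2.78 in WT. The Id1KO arrays stood alone, at 6.19-fold above WT (adjusted p = 2.7e-06) and with the knockdown 6.31-fold below them (adjusted p = 2.7e-06). Both sizes were smaller under other scalings, down to 3.07-fold and 3.06-fold. Id1KO_Zrf1KD and WT overlapped, with a log2 difference of -0.029 and a 95% interval of -0.59 to 0.53 (adjusted p = 0.93), and the sign of this difference turned with the scaling.

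Cldn6, a tight junction protein of early embryonic epithelia, read 0.82, 0.71, 0.45 and 0.82 in Id1KO_Zrf1KD, 0.30, 0.12, 0.49 and 0.28 in Id1KO, and -0.22, -0.25, -0.48 and -0.48 in WT. It was 1.58-fold higher in Id1KO than in WT (adjusted p = 0.00018) and 2.08-fold higher in Id1KO_Zrf1KD than in WT (adjusted p = 4.8e-06). Against Id1KO the knockdown was 1.32-fold higher (log2 0.40, 95% interval 0.17 to 0.64, adjusted p = 0.0055), although 1 array of each group crossed into the range of the other. Cldn6 and Fst were thus the markers called higher after the knockdown, and they differed in the first step, where Cldn6 was higher and Fst lower in Id1KO than in WT.

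**Figure D4:**
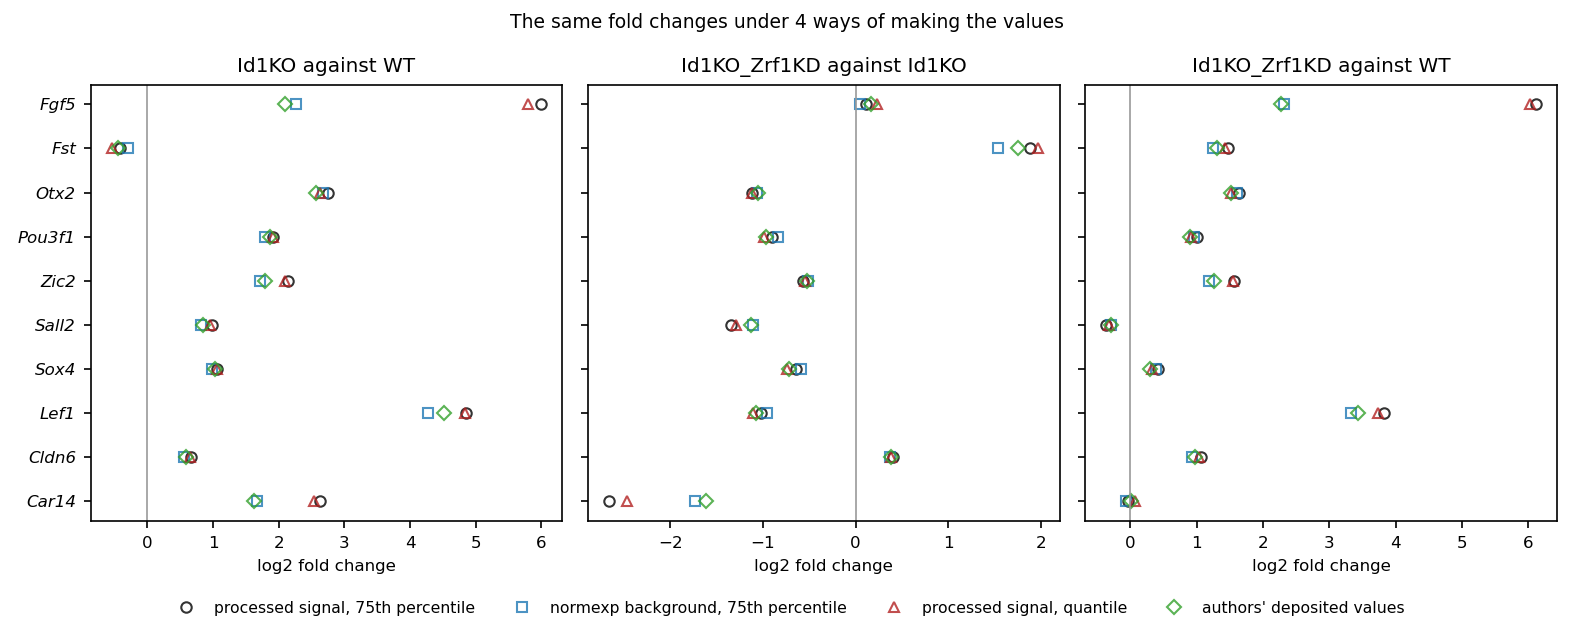
Log2 fold changes of the 10 formative markers in the 3 comparisons under 4 ways of making the values: processed signal scaled to the 75th percentile, a normexp background with the same scaling, quantile normalization, and the authors' deposited values. The points of a marker lie on the same side of 0 for all markers in the first pair of comparisons and for 9 of 10 in Id1KO_Zrf1KD against WT, where Car14 lies at 0, and Fgf5 and Car14 move most in size.

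Other genes of the pluripotency states were read from lists set alongside the markers, and each gene named from a list passed the test in the comparison given (limma, adjusted p under 0.05). Of 25 other formative and primed epiblast genes tested, 20 were higher and 4 lower in Id1KO than in WT. The shares of all genes were 42.5% higher and 29.6% lower. The median of this list was 0.78, against 0.15 for all genes and 2.02 for the 10 markers. Lefty1, a secreted Nodal antagonist, was 8.29-fold higher, the de novo DNA methyltransferase gene Dnmt3b 5.26-fold and the ERK phosphatase gene Dusp6 3.98-fold higher. In Id1KO_Zrf1KD against Id1KO, 8 were higher, 12 lower and 5 not called. The list median there was -0.14, against -0.09 for all genes, of which 32.3% were higher and 39.8% lower. Lefty1 was 4.73-fold, Lefty2 2.63-fold and Fgf15 2.11-fold lower, while Cdh2, which encodes N-cadherin, was 3.72-fold higher. Against WT, 19 were higher and 6 lower in Id1KO_Zrf1KD, beside 32.4% and 32.2% of all genes, with a list median of 0.69.

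Of 20 naive pluripotency genes, 15 were lower and 3 higher in Id1KO than in WT, with a median of -0.72. Over all genes 29.6% were lower and 42.5% higher. Tcfcp2l1, the name on the array for Tfcp2l1, was 4.36-fold lower, Tbx3 3.46-fold, Prdm14 2.97-fold and Nr5a2 2.03-fold lower. All 4 are transcriptional regulators of the naive state. Nanog was 2.02-fold lower. In Id1KO_Zrf1KD against Id1KO, 15 of the naive genes were higher, 1 was lower and 4 were not called, where 32.3% of all genes were higher and 39.8% lower. The lower one was Fgf4, the ligand that naive cells themselves make, at 2.25-fold. Tbx3 was 3.82-fold higher there, the lysosomal enzyme gene Manba 3.23-fold and Nr5a2 2.44-fold higher. Against WT the list split, with 8 higher and 10 lower in Id1KO_Zrf1KD and a median of -0.19, beside 32.4% and 32.2% of all genes.

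All 7 FGF receptors and extracellular partners tested were lower in Id1KO than in WT, where Fgf5 was higher, and all 7 were higher in Id1KO_Zrf1KD than in Id1KO, where 29.6% of all genes were lower in the first comparison and 32.3% higher in the second. Under the other settings each of these counts was 6 or 7. At 2-fold or more, 1 gene was lower in Id1KO than in WT and 2 were higher in Id1KO_Zrf1KD than in Id1KO. The remaining changes were below 2-fold. Fgfr3 was 4.02-fold lower in Id1KO than in WT and 2.63-fold higher in Id1KO_Zrf1KD than in Id1KO, and the heparan sulphate proteoglycan gene Gpc4 was 4.45-fold higher in Id1KO_Zrf1KD than in Id1KO (down to 2.81). Of 10 tested activin ligands, receptors and related genes, 7 were lower and 1 higher in Id1KO than in WT. In Id1KO_Zrf1KD against Id1KO, 6 were higher and 1 lower, and Bmp4, a bone morphogenetic protein, was 4.04-fold higher.

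Of 14 Wnt receptors, partners and targets, 6 were higher and 4 lower in Id1KO than in WT, where Lef1 was higher. These shares are near those of all genes, 42.5% higher and 29.6% lower. Cdx1, a homeobox target of Wnt, was 5.41-fold lower, and Dkk1, a secreted Wnt inhibitor, 3.27-fold higher (down to 1.57). In Id1KO_Zrf1KD against Id1KO, where Lef1 was lower, 9 were higher and 3 lower, against 32.3% and 39.8% of all genes. Sp5, a direct Wnt target, was 6.28-fold (down to 3.57), Cdx1 5.47-fold and Dkk1 3.80-fold higher, and Rnf43, which removes Wnt receptors, was 3.46-fold lower (down to 1.44) at a dim level in Id1KO_Zrf1KD, where 3 of 4 arrays were above background. Here "down to" gives the smallest fold under another scaling where that is over 1.5 times smaller. Of 20 tested relatives of the 10 markers (27 were on the array), 6 were higher and 6 lower in Id1KO than in WT. Their median was 0.06, against 0.15 for all genes, of which 42.5% were higher and 29.6% lower. At 2-fold or more, 4 of these relatives were higher and 1 was lower, and of the higher ones Zic5 was 3.09-fold and Sox11 3.32-fold higher. In Id1KO_Zrf1KD against Id1KO, 4 of the relatives were higher and 11 lower, with a median of -0.31 against -0.09 for all genes.

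**Figure D5:**
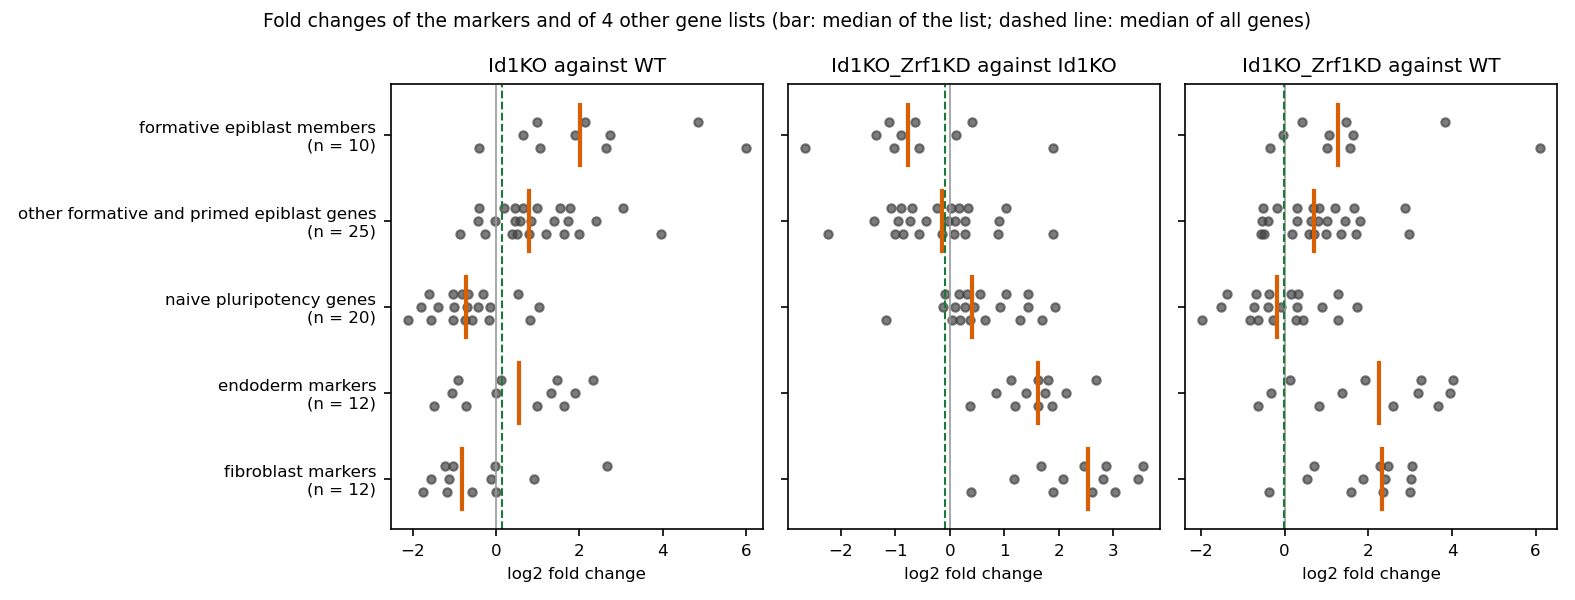
Log2 fold changes of single genes (points) in the 10 formative markers, 25 other formative and primed genes, 20 naive genes, 12 endoderm markers and 12 fibroblast markers, for Id1KO against WT, Id1KO_Zrf1KD against Id1KO and Id1KO_Zrf1KD against WT. Bars are list medians and the dashed line is the median of all genes. The median of the formative markers lies above the line in Id1KO against WT (2.02) and below it in the comparison within the knockout cells (-0.77), where all 12 endoderm and all 12 fibroblast markers lie above it.

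Markers of other cell types moved with the knockdown as well, and fewer cells of a type and less RNA per cell cannot be told apart in these bulk samples. All 12 tested endoderm markers and all 12 fibroblast markers were higher in Id1KO_Zrf1KD than in Id1KO. Of all genes 32.3% were higher and 39.8% lower in that comparison, and 42.5% higher and 29.6% lower in Id1KO against WT. The summed level of the 12 fibroblast markers on the array, in multiples of the array's 75th percentile, was 96.9 to 102.6 in Id1KO_Zrf1KD, 22.2 to 23.2 in Id1KO and 30.97 to 33.6 in WT. Lum was not above background on any Id1KO or WT array. The 14 endoderm markers summed to 23.8 to 25.9 in Id1KO_Zrf1KD, 6.78 to 7.68 in Id1KO and 4.47 to 4.95 in WT. The endoderm factors Foxa2 and Gata6 were 6.43-fold (down to 3.99 under another scaling) and 3.50-fold higher in Id1KO_Zrf1KD than in Id1KO. Cer1 was above background on no array, Afp on none of Id1KO and WT, and Ttr on none of WT. Of 10 tested primitive streak and mesoderm markers, 7 were higher and 2 lower in Id1KO_Zrf1KD than in Id1KO (median 1.40), and 1 was higher and 7 lower in Id1KO than in WT (median -0.89). The sum over the 12 on the array ran the other way. A single gene, Kdr, a receptor for vascular endothelial growth factor, made up 51.7% of it in Id1KO_Zrf1KD, 82.1% in Id1KO and 49.8% in WT, and the direction of Kdr turned with the mean of its probes. That sum was 4.51 to 5.06 in Id1KO_Zrf1KD, 7.79 to 9.15 in Id1KO and 5.31 to 6.20 in WT, with Mixl1 above background on no array, Mesp1 on none of Id1KO_Zrf1KD, and T, Gsc and Foxc1 on none of Id1KO. The 11 neural markers summed to 10.3 to 11.03 in Id1KO_Zrf1KD, 5.95 to 7.14 in Id1KO and 11.2 to 11.8 in WT, with Dcx and Neurog2 above background on no array and Pax3 on none of WT. Of the 10 embryonic stem cell markers, 5 were higher and 3 lower in Id1KO_Zrf1KD than in Id1KO, with a median of 0.10. They summed to 896.4 to 909.1 in Id1KO_Zrf1KD, 1089 to 1223 in Id1KO and 1018 to 1165 in WT, with 51.9% of the sum from Dppa5a alone in Id1KO_Zrf1KD, 64.7% in Id1KO and 47.4% in WT. The log2 difference of Dppa5a between Id1KO_Zrf1KD and Id1KO, -0.67, was -0.10 with quantile normalization. The part of these cells or programmes in the markers' differences was not tested.

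The genes most like a marker were sought as those with the smallest root-mean-square difference, over the 12 arrays, between levels centred on each gene's own mean, and are named for the markers whose group means spanned most. Fgf5 would come first but gets no neighbours here, since in WT only a bound to its level is known. For Lef1 (group means spanning 4.85 log2 units) they were Zfy1 and Psmb8 at 0.25 and Defb25 at 0.26, of which Zfy1 is itself Y-linked. Zfy1 and Psmb8 were above background on 0 of 4 WT arrays, so their distances rest on dim values. Otx2 (2.75) was followed most closely by Sepp1 at 0.12, Mir17hg at 0.14 and Mal2 at 0.17. Around Car14 (2.66) lay Gstt2 at 0.31, Mirg at 0.34 and Clps at 0.35.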

How the data were processed

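Per the file headers, Agilent Feature Extraction 10.7.3.1 gave each spot's intensity as a mean signal, a local background and a processed signal, the last with background removed within the array and no scaling across arrays. Further columns flag spots above background, saturated or outlying. The authors' deposited table holds log2 values, and each column has a median of 6.55 and a rank correlation of 0.993 to 0.997 with its own array, and no source used here states its background correction or normalization. Probe coordinates are those of the files (mm9).

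Levels are log2 of the processed signal less the array's 75th percentile over non-control spots, as a mean of a probe's spots free of outlier flags (108 to 302 flagged per array). Between 54.8% and 59.3% of spots were well above background, and 0 were saturated. Probes well above background on all 4 arrays of at least 1 group were kept (30879), and the brightest stood for its gene name. Differences were tested by limma 3.58.1 (R 4.3.3, files read with the data.table package, version 1.17.8) in 1 fit of all 12 arrays, two-sided, with Benjamini-Hochberg adjustment over 22590 genes and a threshold of 0.05. The fit was tested on simulated data. Precision is limited by having 4 arrays a group.

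The markers and the gene lists were chosen with earlier results of these data known. Named genes are the 10 markers, Dnajc2, Id1, Nanog, Pou5f1 and Sox2, and from each list up to 4 genes with the smallest adjusted p and at least 2-fold. Some genes of the lists are counted but not reported by name here. Y-linked genes were added after their values were seen.

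Arrays of the same replicate number in different groups had a median correlation of deviations of -0.20 (-0.44 to 0.40), and 1 of 12 arrays was closest to its own number, so the numbers were not used as pairs. Arrays of the same slide had 0.24. The alternatives were normexp background correction (offset 50), quantile normalization, the deposited values, no filter on dim probes, the mean of kept probes, each kept probe, the slide as a block, the replicate number as a block, leaving out each array, and features with a gene symbol alone, the last chosen after seeing the data.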

Additional observations from a re-analysis of the deposited data

How the results depend on the processing

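Over 21 alternatives for each comparison, the counts of formative markers called stayed within 1.5 times: 9 higher and 1 lower in Id1KO against WT under all 21, 2 or 3 higher and 6 or 7 lower in Id1KO_Zrf1KD against Id1KO, and 8 higher and 1 lower in Id1KO_Zrf1KD against WT. At 2-fold or more, 6 to 8 were higher in Id1KO against WT, 3 or 4 lower in Id1KO_Zrf1KD against Id1KO and 5 to 7 higher in Id1KO_Zrf1KD against WT. With the replicate block, 9 markers were higher in Id1KO against WT, 6 lower in Id1KO_Zrf1KD against Id1KO and 8 higher in Id1KO_Zrf1KD against WT, and the block changed no call of a marker. Of 630 marker fold changes recomputed, 622 kept direction and call. Calls were gained in Id1KO_Zrf1KD against Id1KO by Fgf5 (0.23 with quantile normalization, 0.17 in the deposited values) and by Zic2 (-0.92 without Id1KO replicate 3, over a range of -0.92 to -0.29 when arrays were left out). For Car14 in Id1KO_Zrf1KD against WT, the sign turned to 0.069 with quantile normalization and 0.0075 in the deposited values, and lay between -0.28 and 0.16 with arrays left out, with no call in any of these. Outside the markers, Pou5f1 in Id1KO against WT lay between -0.21 and 0.073 with arrays left out, with no call in these fits. It was called lower with quantile normalization (-0.40, limma adjusted p = 0.026) and in the deposited values (-0.375, adjusted p = 0.019). In Id1KO_Zrf1KD against WT, Pou5f1 was also called lower under both (-0.44, adjusted p = 0.018, and -0.45, adjusted p = 0.0081). Kdr turned to -0.69 in Id1KO against WT and 0.79 in Id1KO_Zrf1KD against Id1KO with the mean of its kept probes. The causes were not tested. Nanog in Id1KO_Zrf1KD against Id1KO lost its call with the mean of kept probes (0.10, adjusted p = 0.11 by limma).

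Restricted to the 13751 features with a gene symbol, 4942 genes were higher and 5470 lower in Id1KO than in WT, against 9594 and 6682 of all 22590. In Id1KO_Zrf1KD against Id1KO, 6063 were higher and 4111 lower, against 7294 and 8988, and in Id1KO_Zrf1KD against WT 5393 and 4568, against 7320 and 7283. Fewer features were tested, and the direction of the majority also turned in the first pair of comparisons. The majority in Id1KO_Zrf1KD against Id1KO turned as well with quantile normalization (8035 higher, 7676 lower) and in the deposited values (7990 and 7588), so the shares of all genes given beside the marker counts depend on the scaling. Dim values limit Fgf5 in WT, where only a bound can be given.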
